A study of Mus musculus with 55 samples.

Results

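Mt1 and Mt2, the metallothionein genes that mouse liver expresses, were followed across 55 livers. They were chosen by gene symbol alone and are 2 of the 37620 genes in each mouse's table. The data are liver RNA-seq of 55 untreated male mice from 29 lines of the Collaborative Cross, inbred mouse lines that each recombine the genomes of a shared set of founder strains, so that mates of a line are near-identical in genome and lines differ. By the labels, 8 lines had 1 mouse, 16 lines had 2 and 5 lines had 3. The mice were 8 to 11.9 weeks old and weighed 12.8 to 38 g. The study's methods state free access to rodent chow and tap water throughout, on a fixed light cycle. The hour of collection and the zinc content of the diet were not given in the sources used here, and no fasting before collection was mentioned. Levels are FPKM, the fragments of a gene scaled by transcript length and by library size. Each mouse is called by its line and replicate number, given in accession order, so a number names a mouse and links it to no mouse of another line.

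Metallothioneins are small, cysteine-rich proteins that bind zinc and copper and also cadmium and mercury. Transcription of Mt1 and Mt2 rises when zinc or cadmium enters the cell, through the zinc-sensing factor Mtf1, which binds metal response elements in their promoters. In liver they are also known to rise with glucocorticoids and with the inflammatory signals of the acute phase response, in which hepatocytes change the set of proteins they release into blood. All values below are transcript levels, and neither metal nor protein was measured.

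On the mm9 build both genes lie on the plus strand of chromosome 8. Mt2 (ENSMUSG00000031762) spans chr8:96696518-96697467, and Mt1 (ENSMUSG00000031765) spans chr8:96702989-96704225, 5521 bases further on. Each has 3 coding exons. The coding sequences, 186 bases each, are shown because the measurement depends on telling the genes apart. They were joined over the exons from chr8:96703211-96704090 for Mt1 and chr8:96696748-96697324 for Mt2, on the plus strand, and capitals mark the 38 bases that differ between them.
Mt1: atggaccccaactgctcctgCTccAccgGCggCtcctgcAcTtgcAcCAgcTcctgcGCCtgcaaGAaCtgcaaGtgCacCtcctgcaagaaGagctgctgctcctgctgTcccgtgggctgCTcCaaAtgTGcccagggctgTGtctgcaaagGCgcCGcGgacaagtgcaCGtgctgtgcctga
Mt2: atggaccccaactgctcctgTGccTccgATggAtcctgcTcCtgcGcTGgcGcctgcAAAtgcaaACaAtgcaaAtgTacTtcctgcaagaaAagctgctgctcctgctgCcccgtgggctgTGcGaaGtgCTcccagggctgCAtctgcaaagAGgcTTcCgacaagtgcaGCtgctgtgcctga
The coding sequences were 79.6% identical and the longest run they shared was 20 bases. No 50-base word, the length of a read, was shared by the main transcripts of Mt1 (540 bases) and Mt2 (556 bases). The fragment counts of both genes were whole numbers in every mouse.

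The stretch around each start was searched on both strands for cores of the metal response element, TGCACNC and TGCGCNC, from 250 bases before to 200 bases after the annotated first base. Mt1 held 5 cores and Mt2 held 7. Of the same window at 22380 protein-coding genes, 39.6% held at least 1 core, 0.42% held at least 5 and 0.0402% held at least 7. The cores that follow the annotated start are shown with 5 bases on each side and the core in capitals, read 5′ to 3′ on the strand named, since this is the element through which metal acts on these genes.
Mt1, chr8:96702986-96703002, plus strand: agctcTGCACTCcgccc
Mt1, chr8:96703004-96703020, plus strand: aaaagTGCGCTCggctc
Mt1, chr8:96703068-96703084, minus strand: gggttTGCACCCagcag
Mt1, chr8:96703082-96703098, plus strand: cccttTGCGCCCggact
Mt2, chr8:96696517-96696533, minus strand: gggccTGCGCACgaccc
Mt2, chr8:96696571-96696587, minus strand: ccgccTGCACACgccct
Mt2, chr8:96696590-96696606, minus strand: caccaTGCACGCgcccc
Mt2, chr8:96696624-96696640, plus strand: gctttTGCGCTCgaccc
The coding sequence begins 222 bases after the annotated start in Mt1 and 230 bases after it in Mt2. Each window also held 1 antioxidant response element core (TGACNNNGC, in 18.1% of the windows) and 1 TATA box (TATAAA, in 15.9%). The TATA box lay at chr8:96703110-96703115 in Mt1 and at chr8:96696653-96696658 in Mt2, both after the annotated start. Every core shown lies before the TATA box of its gene. Where transcription starts was not tested, so the cores need not lie in transcribed sequence. The GC box GGGCGG, found in 50.6% of the windows, had 3 matches in Mt1 and 1 in Mt2. Neither window held the letters TTCNNNGAA of a STAT site (in 11.1% of the windows), the E-box CACGTG (in 9.69%) or the core TGTTCT of a glucocorticoid receptor site (in 23.1%). A match is a description of letters and not a measured binding site.

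Libraries held 20.5 to 34.0 M fragments assigned to genes (median 27.7 M). Labels of IL-1052 and IL-2750 stood against the profiles: over 5949 variable genes, IL-1052 replicate 1 was most like IL-2750 replicate 1 (Spearman's rho 0.972, against 0.913 with its own mate), and IL-1052 replicate 2 and IL-2750 replicate 2 were most like each other (rho 0.955). Of the 47 mice with a mate, 42 were most like a mate. The library labelled IL-3575 replicate 2 held pancreas transcripts, with the summed FPKM of 6 markers of pancreas and fat at 334 against 55.1 in the next mouse. Hepatocyte markers were high in every liver (summed FPKM of 8 genes 33460 to 82399). Counts of genes that moved with metallothionein among mates are given with and without these libraries. Other results that rest on mates keep IL-3575 replicate 2, and leave out IL-1052 and IL-2750 only where stated.

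Both genes were detected in every mouse, over a very wide range. Mt1 ran from 2.38 FPKM in IL-611 replicate 1 to 2225 FPKM in IL-2156 replicate 3, with a median of 118 and a 935-fold span. Mt2 ran from 0.44 FPKM in IL-611 replicate 3 to 1780 FPKM in IL-2156 replicate 3, with a median of 90.4 and a 4045-fold span. The fragments behind these values were 31 to 24939 for Mt1 and 6 to 20656 for Mt2, so the lowest Mt2 values rest on few fragments. Mt1 was above 1000 FPKM in 6 mice and below 10 FPKM in 8, and Mt2 was above 1000 FPKM in 3 and below 10 FPKM in 14.

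The family's other members were near silent in these livers. Mt3, the brain form, was at 0 in 50 of 55 mice and reached 0.15 FPKM. Mt4, the form of stratified epithelia, was at 0 in 52 mice and reached 0.19 FPKM. Mtf1, the metal sensor, was present in every liver at 2.13 to 4.91 FPKM (median 3.2), a far narrower range than that of Mt1 or Mt2.

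**Figure D1:**
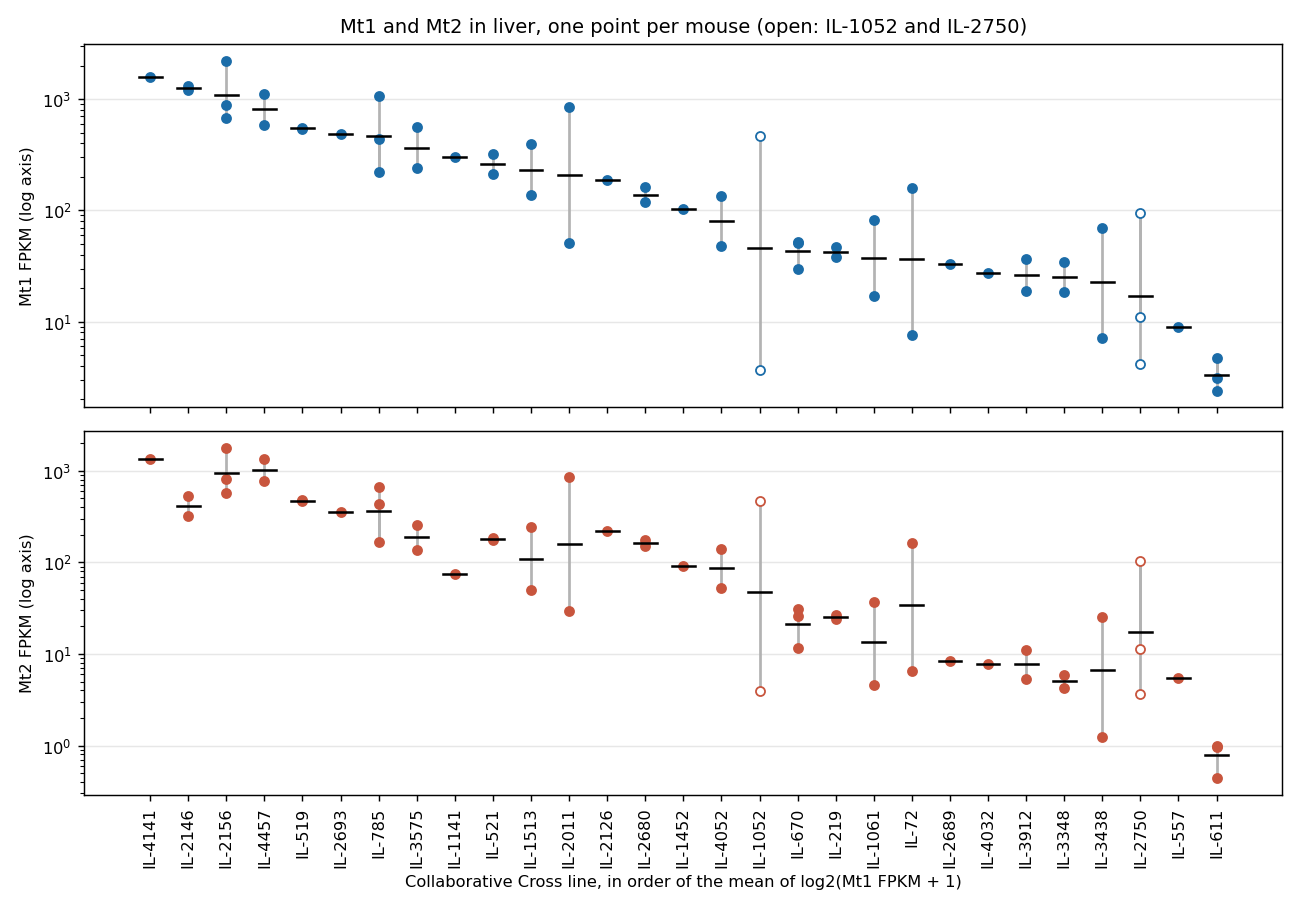
FPKM of Mt1 (upper panel) and Mt2 (lower panel) on log axes, with 1 point per mouse, mates joined by a line, and the 29 lines in order of their mean of log2(Mt1 FPKM + 1). Open points are IL-1052 and IL-2750. IL-611 is lowest and mates of IL-2156 and IL-2146 are among the highest, while several lines in between span more than 10-fold.

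Low levels were found in several lines, more often for Mt2 than for Mt1. IL-611 had the lowest Mt1, with 2.38, 4.66 and 3.1 FPKM in its 3 mice, and the lowest Mt2, with 0.96, 1.0 and 0.44 FPKM. All 3 mice were low for both genes, and Mt2 in them rested on 6 to 14 fragments. IL-557, with a single mouse, had 8.98 FPKM of Mt1 and 5.52 FPKM of Mt2. IL-3348 had 34.41 and 18.3 FPKM of Mt1, above IL-611, but only 5.92 and 4.27 FPKM of Mt2. Mt2 was also low in the single mice of IL-2689 (8.43 FPKM) and IL-4032 (7.77 FPKM). The mates of IL-3912 had 11 and 5.27 FPKM of Mt2, and those of IL-3438 had 1.25 and 25.19 FPKM.

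At the high end, IL-2156 had 672, 880 and 2225 FPKM of Mt1 and 570, 819 and 1780 FPKM of Mt2. All 3 of its mice were high, and the third stood above the other mates for both genes. IL-4141, with a single mouse, had 1581 FPKM of Mt1 and 1335 FPKM of Mt2. IL-4457 had 587 and 1118 FPKM of Mt1 and 766 and 1331 FPKM of Mt2, and in both of its mice Mt2 was the higher gene. IL-2146 had 1210 and 1321 FPKM of Mt1 beside 532 and 319 FPKM of Mt2, so its Mt1 was close between the mates and its Mt2 was well below Mt1.

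When the 29 lines were placed in order of their mean log2(FPKM + 1), none of the 28 gaps between neighbours exceeded the pooled SD within lines for Mt1, and 1 did for Mt2, that between IL-3348 and IL-611. With the pooled SD taken without IL-1052 and IL-2750 (1.21 for Mt1), the Mt1 gap of 1.22 between IL-557 and IL-611 exceeded it. The ranges of the mice overlapped in 21 of the 28 neighbour pairs for Mt1 and in 22 for Mt2. The order of neighbouring lines is therefore a description only.

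Lines differed nonetheless. Among the 21 lines with mates (47 mice), the edgeR quasi-likelihood F test with Benjamini-Hochberg adjustment gave F = 5.22 and an adjusted p = 8.66e-05 for Mt1. For Mt2 it gave F = 5.69 and an adjusted p = 4.28e-05. Of all 15285 genes tested, 88.5% were called by the same test, so a difference among lines was the rule in these livers and not particular to metallothioneins.

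What set both genes apart from most was how far their levels spread, between mates as well as between lines. The highest mate was over 2-fold above the lowest in 11 of 21 lines for Mt1 and in 13 for Mt2, with a median of 2.34-fold and 2.66-fold. IL-2011 had 854 and 50.65 FPKM of Mt1. IL-72 had 7.59 and 160 FPKM of Mt1, and IL-3438 had 7.1 and 69.42 FPKM. Mates lay over 10-fold apart in 4 lines for Mt1 and in 5 lines for Mt2, with IL-1052 and IL-2750 among them. In contrast, mates of IL-519 had 554 and 536 FPKM of Mt1 and 478 and 467 FPKM of Mt2, and mates of IL-219 had 37.99 and 46.36 FPKM of Mt1.

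On the scale of log2(FPKM + 1), the SD of Mt1 within lines was 1.59 and that between line means was 2.25. For Mt2 these SDs were 1.68 and 2.58. Over the 11162 genes expressed highly enough to be ranked, the median was 0.179 within lines and 0.271 between them. By SD within lines, Mt2 stood 21st and Mt1 28th from the top of the 11162. By SD between lines, they stood 56th and 79th. Once IL-1052 and IL-2750 were left out, the SD within lines fell to 1.21 for Mt1 and 1.34 for Mt2, and they stood 44th and 28th.

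The intraclass correlation, the share of the variance of rank-based normal scores that lies between lines, was 0.659 for Mt1 (one-sided permutation p = 4e-05) and 0.617 for Mt2 (permutation p = 0.00021). Over 5949 variable genes its median was 0.592, and Mt1 exceeded 67.2% of them and Mt2 56.4%. With IL-1052 and IL-2750 left out, the values were 0.776 for Mt1 and 0.750 for Mt2 against a median of 0.666, above 80.4% and 73.3% of the genes. Both genes thus combined a large spread between mates with a share of variance between lines above that of the median gene.

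The genes rose and fell together. Across the means of 29 lines, Pearson's r between Mt1 and Mt2 was 0.961 and Spearman's rho 0.958 (adjusted permutation p = 6e-05 for both over 12 relations, the smallest value the permutations allow). Among deviations of 47 mice from their line means, r was 0.984 and rho 0.956 (adjusted permutation p = 6e-05, again the smallest possible). Leaving out the 2 points farthest from the median left r at 0.948 across lines and 0.979 within lines. Leaving out IL-1052 and IL-2750, it was 0.966 across lines and 0.973 within lines. The genes come from the same libraries, and depth enters both.

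**Figure D2:**
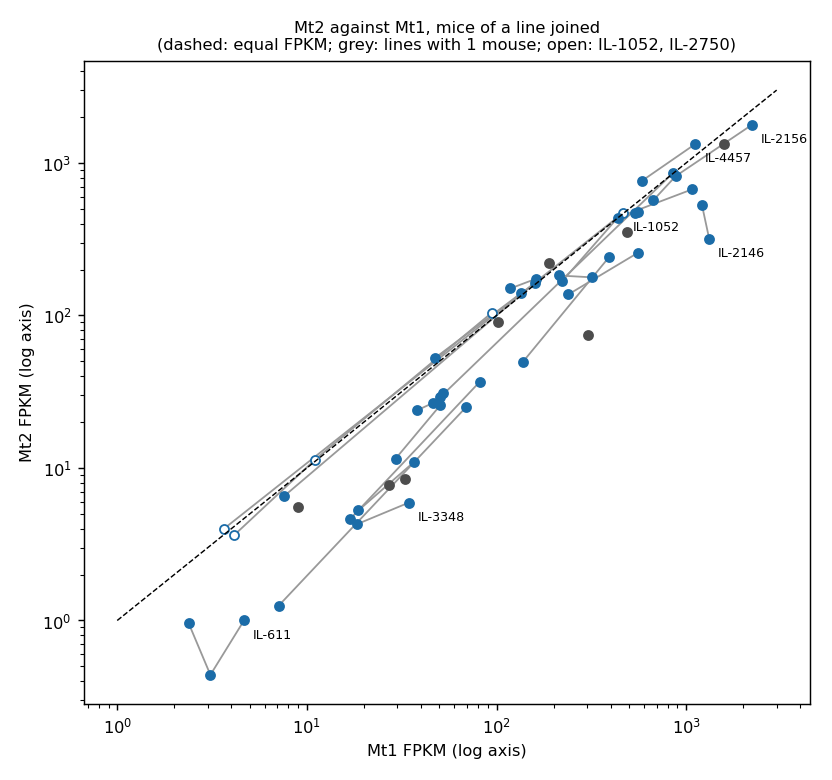
Mt2 FPKM against Mt1 FPKM on log axes, with 1 point per mouse and mates of a line joined. The dashed line marks equal FPKM, grey points are lines with 1 mouse and open points are IL-1052 and IL-2750. Mates move along the diagonal, and 41 of 55 mice lie below it, with more Mt1 than Mt2.

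The balance between the genes was steadier within a line than either level. The ratio of Mt1 to Mt2 FPKM ran from 0.767 to 7.05 (median 1.60) and was above 1 in 41 of 55 mice and 24 of 29 lines. Mean ratios of a line are geometric means over its mice. IL-3348 had the highest, 4.99, followed by IL-611 with 4.33 and IL-1141 with 4.07. IL-4457 had the lowest, 0.803, followed by IL-2680 with 0.855 and IL-2126 with 0.858. In IL-1052, whose labels are in doubt and whose mates lay 128-fold apart in Mt1, the mean ratio was 0.951.

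High ratios were found mostly in lines with little Mt2, and in some lines with more. IL-3348, IL-611, IL-3438, IL-2689, IL-4032, IL-3912 and IL-1061 had mean ratios of 2.85 to 4.99. They stood 22nd or lower of the 29 lines by mean Mt2. IL-557, 27th by Mt2, had 1.63, and IL-1141, 16th, had 4.07. Mt2 enters the ratio, and a relation of the ratio to the level was not tested. In IL-2146, among the highest lines for Mt1, the ratio was 2.28 and 4.14 in the mates. In IL-611, the lowest line, it was 2.48, 4.66 and 7.05, where few Mt2 fragments limit its precision. The log2 ratio had an SD of 0.386 within lines and 0.837 between them, both smaller than those of the levels. Without IL-1052 and IL-2750 these SDs were 0.408 and 0.834. The intraclass correlation of the ratio over all mice was 0.814 (one-sided permutation p = 1e-05, the smallest value the permutations allow). This was a larger estimate than that of either gene, although the difference between these estimates was not tested.

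The ratio was lower in the highest than in the lowest mate by metallothionein level in 10 of 21 lines, and in 9 of 19 without IL-1052 and IL-2750. Whether Mt2 spread more than Mt1 within lines was tested by the correlation of the sum and the difference of the genes' deviations, which was -0.313 over 47 mice (permutation p = 0.0725) and did not pass 0.05. Without IL-1052 and IL-2750 it was -0.396 (permutation p = 0.0922).

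**Figure D3:**
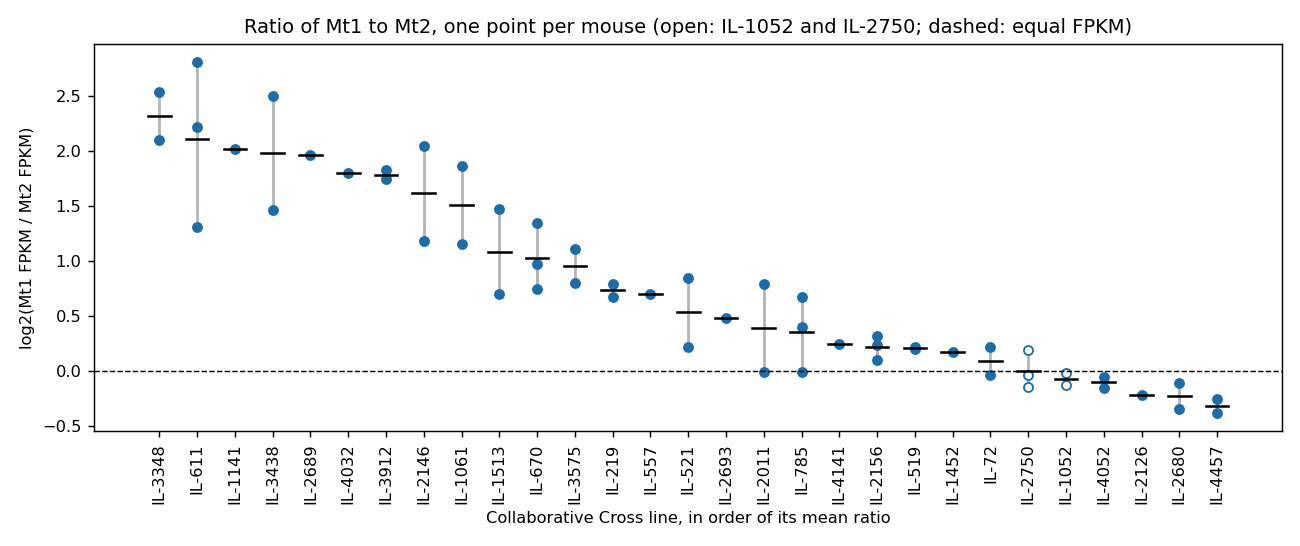
Log2 ratio of Mt1 to Mt2 FPKM, with 1 point per mouse, short bars at the line means, and the 29 lines in order of that mean. The dashed line is equal FPKM and open points are IL-1052 and IL-2750. Line means run from below 0 in IL-4457 to above 2 on the log2 scale in IL-3348, IL-611 and IL-1141.

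Mt1 also has an annotated isoform that keeps intron 2 (chr8:96703789-96704001, 213 bases, on mm9). Its share of Mt1 transcript was small, from 0 to 7.92% with a median of 0.73%, and was 0 in 10 mice. IL-2126 had the highest share, 7.92%, in its single mouse. IL-1513 had 3.96 and 6.31%, and IL-521 had 3.67 and 5.42%, so both mates were high in these lines. The share had an SD of 1.04 percentage points within lines and 1.78 between them, and its intraclass correlation was 0.553 (one-sided permutation p = 0.00146). A share of 0 in the 3 mice of IL-611 rests on 31 to 63 Mt1 fragments. Mt2 has a single annotated isoform.

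The levels were set against age, body weight and depth, and no relation passed over all mice. Across lines, r with age was 0.0845 for Mt1 and 0.182 for Mt2, r with body weight was -0.111 and -0.044, and r with depth was 0.157 and 0.107, and no adjusted permutation p was under 0.05. Within lines, r with depth was -0.0544 for Mt1 and -0.0405 for Mt2. Within lines, r with body weight was -0.187 for Mt1 (rho -0.272, adjusted permutation p of r 0.463) and -0.197 for Mt2 (rho -0.318, adjusted permutation p of r 0.415). Without IL-1052 and IL-2750 (42 mice) r with body weight was -0.315 for Mt1 (adjusted permutation p = 0.0591) and rho was -0.418 (adjusted permutation p = 0.0378). For Mt2 r was -0.320 (adjusted permutation p = 0.0244) and rho -0.476 (adjusted permutation p = 0.0152). Heavier mates thus had less Mt2 by both measures and less Mt1 by rank only. Without the 2 farthest mice r was -0.404 for Mt1 and -0.367 for Mt2. Leaving out IL-2750 replicate 2 alone gave -0.291 for Mt1 (adjusted permutation p = 0.0318) and -0.302 for Mt2 (adjusted permutation p = 0.0128), so the call depends on whether the libraries with doubtful labels are used.

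Which genes moved with metallothionein among mates was then asked by a slope on the metallothionein level, the mean of log2(FPKM + 1) of Mt1 and Mt2, with a term for each line (edgeR quasi-likelihood, Benjamini-Hochberg adjustment). The slope is the log2 change of a gene for each log2 unit of metallothionein. Over all 21 lines 139 of 15283 genes (0.91%) rose with metallothionein and 108 (0.707%) fell. Without IL-1052 and IL-2750, 19 of 15247 genes (0.125%) rose and 0 fell, beside 618 (4.05%) and 410 (2.69%) at an unadjusted p under 0.05. Of the 247 genes called over all lines, 11 were also among the 19, which is 4.45% of the first list and 57.9% of the second, so the calls over 21 lines rested largely on the libraries whose labels are in doubt. The values without those lines are given first below.

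In the 19 lines left, acute phase genes were among those that rose. Of 20 tested genes of the list, 4 rose (Orm1, Apcs, Hpx and Lcn2), 0 fell, and all 20 had a positive slope, with a median of 0.25 against 0.000331 over all genes. At an unadjusted p under 0.05, 15 of the 20 were higher, against 4.05% of all genes. Over all 21 lines 5 rose (Orm1, Lcn2, Hpx, Hp and Saa4), 0 fell and 16 had a positive slope, with a median of 0.136.

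Orm1, an orosomucoid, a carrier protein released by hepatocytes, had a slope of 0.31 ± 0.064 (SE) in 19 lines (edgeR adjusted p = 0.0339) and 0.28 ± 0.050 over all lines (adjusted p = 0.00849). In IL-2011 it was 6767 FPKM in the mate with 854 FPKM of Mt1 and 1551 FPKM in the mate with 50.65. In IL-72 it was 1425 FPKM in the mate with 160 FPKM of Mt1 and 788 FPKM in the mate with 7.59. It was higher in the mate with more metallothionein in 13 of 19 lines. Reads of Orm1 can be shared with its close paralogs Orm2 and Orm3.

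Hpx, hemopexin, which binds free heme in plasma, had a slope of 0.28 ± 0.056 (edgeR adjusted p = 0.032) in 19 lines and 0.18 ± 0.044 over all lines (adjusted p = 0.0316). In IL-2156 it was 7616, 10413 and 13146 FPKM in the mice with 672, 880 and 2225 FPKM of Mt1. In IL-2011 it was 11258 and 3149 FPKM, again with the higher value in the mate with more Mt1. Hpx was higher in the mate with more metallothionein in 12 of 19 lines.

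Apcs, serum amyloid P, a main acute phase protein of mice, had a slope of 0.35 ± 0.065 (edgeR adjusted p = 0.0216) in 19 lines but 0.11 ± 0.072 (adjusted p = 0.549) over all lines. It was 1141 and 131 FPKM in IL-2011 replicates 1 and 2, and 692, 1027 and 1693 FPKM in the 3 mice of IL-2156. In IL-1052 the order was the opposite, with 438 FPKM in the mate at 3.65 FPKM of Mt1 and 268 FPKM in the mate at 467. Of the 19 lines, 12 had more Apcs in the mate with more metallothionein.

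Lcn2, lipocalin 2, which binds bacterial iron carriers, had the steepest slope of the called acute phase genes, 0.97 ± 0.19 (edgeR adjusted p = 0.0315) in 19 lines and 0.77 ± 0.18 over all lines (adjusted p = 0.0284). It was 442 and 3.95 FPKM in IL-2011, 54.3 and 516 FPKM in IL-72, and 34.3 and 135 FPKM in IL-3438. In each of these lines the mate with more Mt1 had more Lcn2, and so it was in 16 of the 19 lines.

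The remaining members had positive slopes in 19 lines that did not pass the test. Hp, haptoglobin, had 0.25 ± 0.061 (edgeR adjusted p = 0.128), having passed over all lines with 0.18 ± 0.046 (adjusted p = 0.0394). Itih4, a protease inhibitor chain, had 0.25 ± 0.054 (adjusted p = 0.0681). Saa1, serum amyloid A, had 0.72 ± 0.27 (adjusted p = 0.609), and its FPKM ran from 3.31 to 38298 over the mice. Orm2 had 0.77 ± 0.17 (adjusted p = 0.0875).

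Mates with little difference in metallothionein add little to such a slope, and single mice or lines decided calls. In a line with 2 mice, leaving out either takes the whole line out of the slope, so its 2 fits are not independent. With each of the 42 mice left out in turn, Orm1 passed in 28 fits, Lcn2 in 31, Hpx in 32 and Apcs in 40. Apcs was lost when either mouse of IL-2011 was left out. The number of genes that rose ranged from 5 (without IL-4052 replicate 1 or 2) to 23, and was 8 without IL-3575 replicate 2 and 11 without either mouse of IL-2011.

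**Figure D4:**
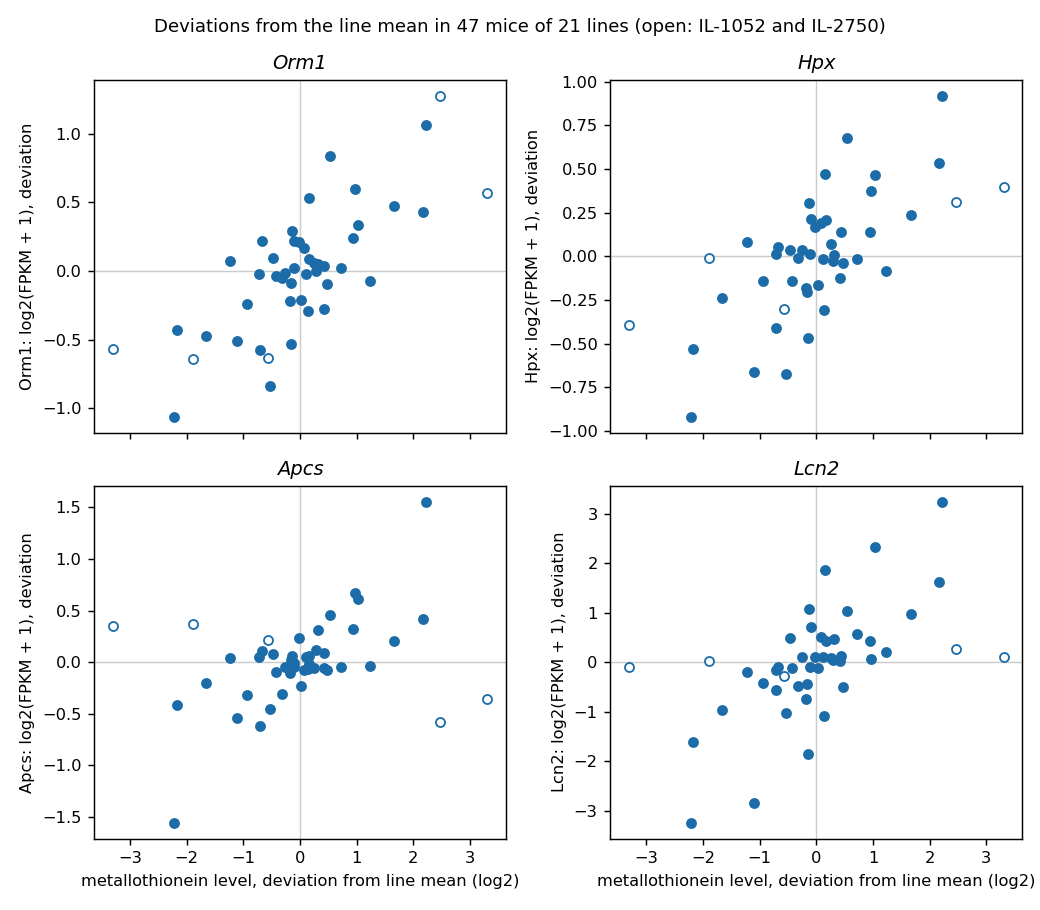
Deviation of log2(FPKM + 1) of Orm1, Hpx, Apcs and Lcn2 from the line mean against the deviation of the metallothionein level, with 1 point for each of 47 mice of 21 lines. Open points are IL-1052 and IL-2750. Among the filled points the genes rise with metallothionein, and the mates of IL-1052 go the opposite way in the Apcs panel.

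The pattern was carried by some lines and not by others. In IL-2156, comparing the highest with the lowest mate, 20 of 20 acute phase genes were higher in the mate with more metallothionein (median difference 1.36 on the log2 scale), and in IL-2011 19 of 20 were (median difference 1.64). In IL-785 and IL-4457 18 of 20 were higher and in IL-72 16 of 20. In IL-1061, IL-519, IL-521 and IL-670 only 4 of 20 were higher. The mates of IL-519 and IL-521 differed little in metallothionein (0.04 and 0.27 on the log2 scale), but those of IL-1061 had 81.36 and 16.96 FPKM of Mt1. The mates of IL-2146 and IL-2680 also differed little (0.30 and 0.32), yet 17 and 15 of 20 genes were higher. In IL-3438, with a difference of 3.33, 13 of 20 were.

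Mice of different lines with high or low metallothionein held mixed acute phase levels. Of the 20 acute phase genes, the number above its median over the 55 mice was 20 in IL-2156 replicate 3 and 13 in IL-4141, the mice with the most Mt1. It was 12 and 15 in the mates of IL-4457 and 6 and 11 in those of IL-519. In IL-611, lowest in metallothionein, it was 16, 10 and 13. Within these lines members went both ways: IL-4141 had 0.46 FPKM of Lcn2 and 759 FPKM of Orm1, below the medians of 6.27 and 886 FPKM, but 357 FPKM of Apcs and 10.2 FPKM of Socs3, above the medians of 278 and 2.14 FPKM. IL-611 had 1309, 1120 and 964 FPKM of Orm1, above its median, but 97.2, 107 and 90.9 FPKM of Apcs, below its median.

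Markers of some other cell types, but not of all, were highest in 1 mouse of a line with high metallothionein. IL-2156 replicate 2, which had less metallothionein than replicate 3, had the highest summed FPKM of neutrophil markers (143 against 71.6 in the next mouse and a median of 3.94, with 5 of 6 genes at 0 in some mouse), of Kupffer cell and macrophage markers (520, range from 19.5, median 107), of cholangiocyte markers (208, range from 6.50, median 27.5) and of red cell markers (4528, range from 446, median 1363). Summed markers of sinusoidal endothelium were highest in IL-4052 replicate 2 (105 FPKM). Those of stellate cells and of lymphocytes were highest in IL-3912 replicates 1 (137 FPKM) and 2 (9.13 FPKM), whose Mt1 was 36.88 and 18.7 FPKM. The hepatocyte sum was lowest, 33460, in a mouse of IL-2156. Among mates of 19 lines 0 genes of these lists were called, beside 0.125% of all genes. The slope was positive for 3 of 6 neutrophil, 8 of 10 Kupffer cell and macrophage, 5 of 5 cholangiocyte and 0 of 5 red cell markers (median slopes 0.011, 0.024, 0.11 and -0.15). It was positive for 2 of 7 endothelial, 1 of 7 stellate and 0 of 6 lymphocyte markers (median slopes -0.0069, -0.054 and -0.26). Their part in the acute phase slopes was not tested. In bulk tissue, a change in the number of cells of a type and a change in RNA per cell cannot be told apart.

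Besides the acute phase list, the clearest genes among mates were Ifitm2, an interferon-induced membrane protein, and Aig1, a membrane hydrolase of fatty acid esters of hydroxy fatty acids. Ifitm2 had a slope of 0.17 ± 0.027 (edgeR adjusted p = 0.00286) in 19 lines and was higher in the mate with more metallothionein in 15 of 19. Aig1 had a slope of 0.18 ± 0.027 (adjusted p = 0.00301) and was higher in 14 of 19. Both passed in 42 of 42 fits with 1 mouse left out. In IL-2011 Ifitm2 was 339 and 176 FPKM and Aig1 was 8.09 and 5.24 FPKM, in both cases with more in the mate with more Mt1. Over all 21 lines neither passed (adjusted p = 0.15 for Ifitm2 and 0.353 for Aig1).

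Of the 19 genes that rose in 19 lines, 9 are genes of the exocrine pancreas, such as Pnlip, pancreatic lipase, and Cpb1, a carboxypeptidase. IL-3575 replicate 2, the library with the most Pnlip (93.06 FPKM), had 558 FPKM of Mt1 against 239 in its mate. Pnlip was also 7.26 FPKM in IL-4052 replicate 1 and 1.67 FPKM in IL-1061 replicate 1, against 0.09 and 0 in their mates. Both were the mates with more Mt1. Pnlip was higher in the mate with more metallothionein in 7 of 19 lines. All 9 genes lost their call when either mouse of IL-4052 was left out. With IL-3575 replicate 2 also left out, 6 of 15247 genes rose (0.0394%) and 0 fell, with 577 (3.78%) and 377 (2.47%) at an unadjusted p under 0.05. The 6 were Ifitm2 and Aig1 (each edgeR adjusted p = 0.00442) and Apcs, Orm1, Orm2 and Hpx (each 0.0477). The pancreas genes no longer passed, although Pnlip kept a slope of 2.93 (edgeR adjusted p = 0.268). The median slope of the 20 acute phase genes was then 0.239.

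No tested gene of zinc or copper handling passed the slope test. Of the tested zinc exporters (8), zinc importers (13) and copper handling genes (10), 0 were called over 21 lines or in 19 lines, against the shares of all genes given above. At an unadjusted p under 0.05 in 19 lines, 1 exporter rose, 1 importer rose and 1 fell, and 2 copper handling genes rose, beside 4.05% and 2.69% of all genes. Cp, of the copper list, had a slope of 0.12 ± 0.032 (edgeR adjusted p = 0.244) in 19 lines. Slc30a1, the plasma membrane zinc exporter and an Mtf1 target, ran from 3.93 to 12.8 FPKM and had a slope of 0.071 ± 0.032 (edgeR adjusted p = 0.302) over all lines and 0.086 ± 0.044 (adjusted p = 0.766) in 19 lines. Slc39a14, the zinc importer that rises in liver inflammation, had 0.076 ± 0.032 (adjusted p = 0.264) and 0.066 ± 0.046 (adjusted p = 0.846). Mtf1 itself had 0.016 ± 0.019 (adjusted p = 0.782).

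Of 15 glucocorticoid receptor targets and related genes, 0 were called, with a median slope of 0.0284 over all lines and 0.0368 in 19 lines. Of all genes, 0.91% rose and 0.707% fell over all lines, and 0.125% rose in 19 lines. Fkbp5, a chaperone induced by glucocorticoids, had 0.26 ± 0.089 (edgeR adjusted p = 0.532) in 19 lines. Per1, a clock gene that glucocorticoids also induce, had 0.28 ± 0.10 (adjusted p = 0.584). Of 12 genes of endoplasmic reticulum and amino acid stress and 11 immediate early genes, 0 were called among mates. At such shares of all genes most lists this short hold no called gene, so these counts say little about the lists.

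Several genes that passed over all lines did not pass once IL-1052 and IL-2750 were left out. Of 16 Nrf2 targets, Nqo1, a quinone reductase, rose (slope 0.26, edgeR adjusted p = 0.0444), Gstm3 rose (0.59, adjusted p = 0.0485) and Osgin1 fell (-0.23, adjusted p = 0.0229). In 19 lines their slopes were 0.042, 0.16 and -0.16 (adjusted p = 0.947, 0.92 and 0.696). Of 15 fasting and feeding genes, Fgf21, a hepatic fasting hormone, fell (-0.57, adjusted p = 0.034), and its slope was as large in 19 lines (-0.59 ± 0.20, adjusted p = 0.523). Of 15 clock genes, Ciart rose (0.40, adjusted p = 0.0284), with a slope of 0.41 ± 0.16 in 19 lines (adjusted p = 0.653), and Arntl fell (-0.22, adjusted p = 0.0358), with -0.14 in 19 lines (adjusted p = 0.738). Alas2, a red cell marker, fell (-0.19, adjusted p = 0.0113), with -0.15 in 19 lines (adjusted p = 0.505). The slopes of Nqo1 and Gstm3 thus shrank, and those of Fgf21 and Ciart did not, although none passed.

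Between lines, with 1 mean per line, no gene passed. A slope of the line mean of log2(FPKM + 1) on the line mean of metallothionein (limma, 29 lines, Benjamini-Hochberg adjustment) called 0 of 15283 genes (0%), with 402 higher (2.63%) and 950 lower (6.22%) at an unadjusted p under 0.05, and 0 in each of 8 alternatives of the fit. Of the 20 acute phase genes 19 had a positive slope, with a median of 0.0801 against -0.00478 over all genes. Socs3, the feedback inhibitor of cytokine signalling through Stat3, had 0.24 ± 0.061 (unadjusted p = 0.00046, limma adjusted p = 0.393).

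Slc39a14 had a slope between lines of 0.12 ± 0.029 (limma unadjusted p = 0.00022, adjusted p = 0.269). It was 74.7 FPKM in IL-4141, 66.8 and 77.2 FPKM in IL-4457, and 20.2, 23.7 and 22.8 FPKM in IL-611. All 11 immediate early genes, which respond within minutes to stress and handling, had positive slopes between lines, with a median of 0.209 and 5 at an unadjusted p under 0.05 (adjusted p at least 0.533). Junb, a subunit of the AP-1 factor, had 0.25 ± 0.081 and Atf3, a stress-induced repressor, had 0.28 ± 0.10.

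**Figure D5:**
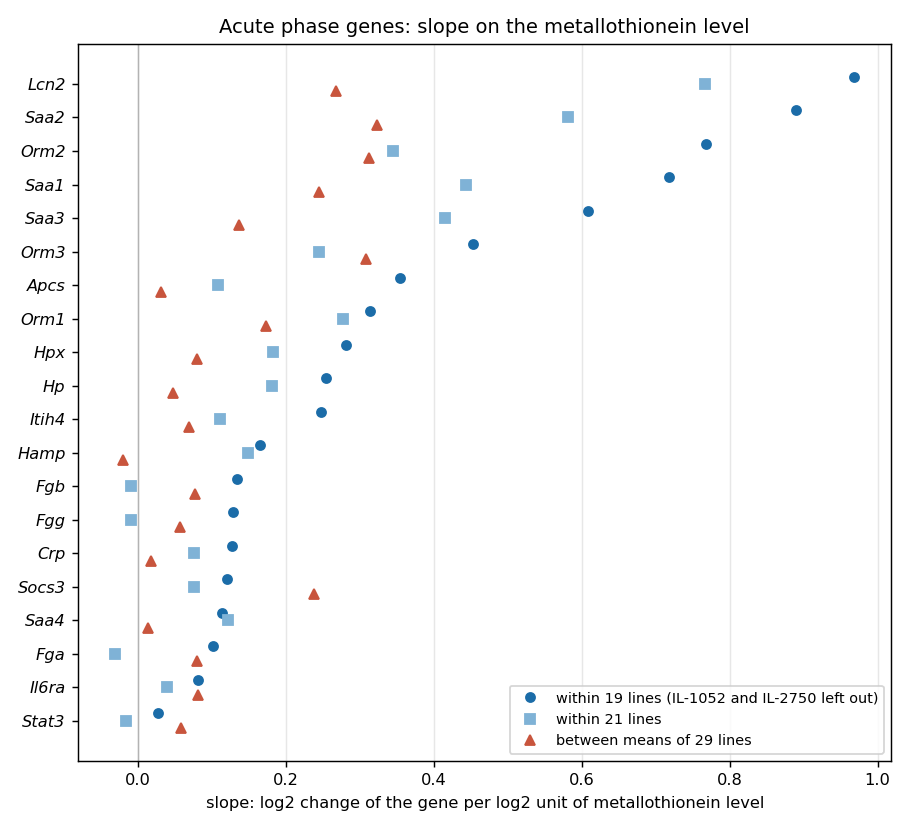
Slope of each of 20 acute phase genes on the metallothionein level, in log2 change per log2 unit, within 19 lines (circles), within 21 lines (squares) and between the means of 29 lines (triangles). In 19 lines the slope is above 0 for 20 of 20 genes, within 21 lines for 16 and between lines for 19.

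The genes whose pattern was most like metallothionein were sought among 11160 others by Pearson's r of log2(FPKM + 1) and are given as a description. The points share libraries, and the most extreme of many genes is expected to be high. Across 29 line means the highest were Poldip3 (0.67), Slc39a14 (0.62), Cxcl1 (0.62), a neutrophil chemokine, Il17ra (0.60), Socs3 (0.59), Srrm4 (0.59), Cebpd (0.58), a factor induced in the acute phase, Cd14 (0.57), Rbms2 (0.56) and Tmc5 (0.55). The lowest were Ola1 (-0.67), Col5a3 (-0.66), Bik (-0.65), Atr (-0.64) and Chpt1 (-0.63). Cebpd was 6.72 FPKM in IL-4141 and 1.24 to 1.33 FPKM in the 3 mice of IL-611.

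Across deviations of 47 mice the highest were Gbp8 (0.75), Orm1 (0.75), Ttc7 (0.75), Gbp11 (0.74), Antxr2 (0.72), S1pr5 (0.71), Dynlt1a (0.71), Cebpe (0.70), Slc44a4 (0.70) and Jak3 (0.70). The lowest were Gm9897 (-0.75), Olfml1 (-0.72), Abcb10 (-0.71), Acadsb (-0.71) and Pkd2 (-0.71). Without IL-1052 and IL-2750 Orm1 was at 0.70, Jak3 at 0.62 and Gbp8, an interferon-induced GTPase, at 0.56. In those 42 mice the highest were Ifitm2 (0.76), Apcs (0.75), Aig1 (0.75), Lcn2 (0.74), BC048546 (0.72), Serpina3n (0.72), Hpx (0.71), Itih4 (0.71), Orm1 (0.70) and Dnaic1 (0.70). Of these 10 genes, Apcs, Lcn2, Hpx, Itih4 and Orm1 belong to the acute phase list, and no such gene but Socs3 was among the 10 highest across line means.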

How the data were processed

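Liver RNA-seq of 55 mice was analysed. Per the labels and the study's methods, the authors extracted RNA with RNeasy Plus, made TruSeq Stranded mRNA libraries, sequenced paired ends of 50 bases, and aligned reads with Bowtie 2 2.1.0 and quantified them with RSEM 1.2.18 against transcripts of mm9 (NCBI build 37) and Ensembl 67. RSEM splits reads that match several genes, and 1 reference sequence served all lines, so founder variants in transcripts can lower counts. The deposited tables hold, per gene, an expected count, TPM and FPKM and, per isoform, its percent of the gene. TPM, as deposited, was used only in alternatives. These were of the fit between lines, of the intraclass correlations of Mt1, Mt2 and their ratio, and of the relations of Mt1 and Mt2 with each other, age, body weight and depth.

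Of 37620 gene IDs, 37205 were named by GENCODE vM1 (Ensembl 65) and 415 were not. Groups are the lines of the labels, and nothing says whether mates shared a litter or a batch. Expected counts as deposited were rounded and tested with edgeR 4.0.16: an F test among 21 lines, and a slope on metallothionein with a term per line. The SE of a slope is its size divided by the square root of F. Line means of log2(FPKM + 1) were fitted with limma 3.58.1 and its trend option. DESeq2 1.42.0 was an alternative. Genes with low counts were left out by edgeR's default filter, and the threshold was an adjusted p of 0.05. Intraclass correlations of normal scores were tested with 100000 permutations and, with a mouse left out, 10000. Likeness and spread were ranked over 11162 genes that passed the edgeR filter and reached 2 FPKM, and the 5949 variable genes took at least 12 different levels after binning. Named genes were the 10 most and 5 least alike and genes of the lists, those that passed first. Of these, the per-mouse examples and the genes named without IL-1052 and IL-2750 were chosen after their values were seen. Members and lists were chosen with earlier results of these data known. Sequences are from the mm9 genome and GENCODE vM1. The scripts were tested on simulated data. The series text gives fewer lines with 3 mice than the labels, which were followed.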

Additional observations from a re-analysis of the deposited data

How the results depend on the processing

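No paired analysis was possible because the labels give no replicate numbers that lines share. The number of genes that rose and fell with metallothionein among mates moved most: 252 and 199 by DESeq2's Wald test in place of 139 and 108, 19 and 0 without IL-1052 and IL-2750, and 6 and 0 without those lines and IL-3575 replicate 2. With 1 mouse left out over 21 lines the counts ranged from 6 to 197 and from 0 to 193, being 6 and 0 without IL-1052 replicate 1, 6 and 1 without replicate 2, 15 and 1 without IL-2750 replicate 2, 68 and 50 without IL-2750 replicate 1 and 197 and 193 without either mouse of IL-72. In 19 lines they ranged from 5 to 23 and from 0 to 2, with 2 lower without either mouse of IL-72. These leave-one-out fits held the dispersion trend of the full fit. The exclusions of mice in the fits of 19 lines were chosen after seeing the data. Within lines, r with body weight ranged with 1 mouse left out from -0.291 to -0.127 for Mt1 and from -0.302 to -0.153 for Mt2, and in each the call changed without IL-2750 replicate 2. Without IL-1052 and IL-2750 r for Mt2 was -0.320 and passed (adjusted permutation p = 0.0244). The cause was not tested.

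The difference among lines kept its call for both genes in every alternative, with an edgeR adjusted p of at most 0.000265 for Mt1 and 0.000139 for Mt2 with 1 mouse left out. Mt2, with 6 fragments in the lowest mouse, did not enter the fit restricted to at least 10 fragments in every mouse. The intraclass correlation ranged from 0.560 to 0.776 for Mt1, 0.570 to 0.750 for Mt2, 0.632 to 0.828 for their ratio and 0.542 to 0.642 for the isoform share. Depth limits Mt2 and the ratio in IL-611.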
